A study of Mus musculus with 20 samples.

Results

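Among 10 libraries of mouse epididymal white adipose tissue (eWAT) from the food-restricted group, 3 were chosen by the level of Elovl6, the elongase that turns palmitate into stearate, and were compared with the other 7 across all other expressed genes. The 3 libraries, of 10 restricted and 20 in all, were Restricted 1, Restricted 10 and Restricted 5, numbered as the submitters numbered the replicates. The study sequenced polyA RNA of eWAT under a control diet (10 libraries) and under a regimen labelled RandomFoodRestriction, which joined intermittent fasting with 5% calorie restriction (10 libraries). The labels used here give no strain, age, time since the last meal or source animal for a library, so the spread within the regimen is described without a feeding state. A label named spermatozyte contamination read Yes for Restricted 1, 2 and 3 and No for Restricted 4 to 10. The RNA integrity number was 7.4 in Restricted 1 and 7 in Restricted 5, was not given for Restricted 10, and ranged from 6.5 to 7.9 in the 6 of the other 7 that had one.

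White adipocytes make fatty acids from glucose. Citrate leaves the mitochondrion through Slc25a1, Acly splits it to acetyl-CoA, Acaca makes malonyl-CoA, Fasn builds palmitate from it with NADPH from Me1 and the pentose phosphate pathway, Elovl6 lengthens the product and Scd1 desaturates it. In rodent fat and liver these genes are low in fasting and high when a carbohydrate meal follows, driven by insulin through SREBP-1c and by glucose through ChREBP.

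The stretch upstream of the gene used to choose the libraries is shown with those of 2 genes of the same pathway that were higher in the 3, since all are lipogenic genes with differing upstream sequence. Each is bases 250 to 41 before the RefSeq start (build GRCm38.p6), written 5′ to 3′ on the gene's strand. Capitals mark CCAAT, the box bound by NF-Y, and CACGTG, an E-box of the kind SREBP and ChREBP family factors bind, searched on both strands.
Elovl6, chr3:129532136-129532345, plus strand: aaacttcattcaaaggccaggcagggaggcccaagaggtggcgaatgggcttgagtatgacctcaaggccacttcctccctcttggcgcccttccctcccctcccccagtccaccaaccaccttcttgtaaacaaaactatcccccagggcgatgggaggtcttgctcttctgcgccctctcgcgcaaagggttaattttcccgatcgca
Fasn, chr11:120824588-120824797, minus strand: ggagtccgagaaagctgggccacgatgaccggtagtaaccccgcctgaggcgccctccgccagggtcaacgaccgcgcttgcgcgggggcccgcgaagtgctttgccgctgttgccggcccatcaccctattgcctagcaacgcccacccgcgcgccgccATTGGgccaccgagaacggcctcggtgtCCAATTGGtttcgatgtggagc
Slc25a1, chr16:17928260-17928469, minus strand: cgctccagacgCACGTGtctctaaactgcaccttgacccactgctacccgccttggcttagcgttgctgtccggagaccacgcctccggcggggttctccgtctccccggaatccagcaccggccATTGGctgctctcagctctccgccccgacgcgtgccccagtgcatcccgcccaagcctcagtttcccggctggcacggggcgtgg

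The Fasn window held 3 CCAAT matches, of which 2 overlap on opposite strands, the Slc25a1 window held 1 CCAAT and 1 CACGTG, and the Elovl6 window held neither motif. Of the 9 genes of fatty acid synthesis that were higher in the 3 libraries, described next, all 9 had a RefSeq window, 6 held CCAAT (Acacb, Acss2, Fasn, Me1, Slc25a1 and Thrsp) and 1 held CACGTG. The windows of Acss2 and Thrsp, and that of Aacs, which held neither motif, overlap an annotated GENCODE exon of their own gene, so they are not wholly upstream of it. Those of Acaca (from 84195188) and Acacb (from 114165268) overlap no exon but lie inside their genes. The annotated spans are 84129672 to 84401651 for Acaca and 114146535 to 114250761 for Acacb. These 2 windows are thus not upstream of the annotated gene. Me1 had 2 windows, of which 1 held CCAAT. Over all 32851 windows of this length, 29.9% held CCAAT and 4.65% held CACGTG. A match describes the letters and is not a measured binding site.

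Elovl6 (ENSMUSG00000041220.10, chromosome 3, 129532355 to 129634971, plus strand) was at 674 CPM (the gene's counts over the library's total count, times 1e+06) in Restricted 1, 328 in Restricted 10 and 207 in Restricted 5. The other 7 restricted libraries ranged from 35.8 to 134 with a median of 65.8 CPM, and the 10 controls ranged from 35.5 to 87.7 with a median of 57.7. The member just inside the threshold was Restricted 5 at 207 CPM and the library just outside was Restricted 8 at 134 CPM, so the step between them is smaller than that between Restricted 1 and Restricted 10. Group means were 403 ± 242 CPM (SD, n = 3), 65.3 ± 33.1 (n = 7) and 56.9 ± 17.8 in controls (n = 10). Highest over lowest, Elovl6 spanned 18.8-fold in the restricted group and 2.47-fold in the controls. These values chose the libraries and are given as a description. An annotated antisense transcript overlaps the first exon of Elovl6, and whether strand was used in counting is not given in the sources used here.

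Libraries of the 3 held 20352755 (Restricted 1), 25300472 (Restricted 10) and 26232271 (Restricted 5) counts, within the range of 18291602 to 44061508 of the other 7, so Elovl6 rested on 5434 to 13710 counts in the 3 and on 655 to 3734 in the 7. Skeletal muscle genes, a sign of another tissue in the library, stood apart in Restricted 1: their summed level was 4164 CPM there against 112 in Restricted 5, 175 in Restricted 10, 110 to 142 in the other 7 and 99.4 to 2590 in controls. Among controls, the summed level was 1237 to 2590 CPM in replicates 1 to 5 and 99.4 to 125 in replicates 6 to 10. The creatine kinase gene Ckm was at 187 CPM in Restricted 1, 2.81 in Restricted 10 and 0.11 in Restricted 5, and its highest value in the 7 was 0.82. The sperm protamine gene Prm2, which marks male germ cells, was at 0.098, 0 and 0.11 CPM in Restricted 1, 10 and 5 and reached 61.5 CPM in Restricted 2. Adipocyte genes summed to 59380 to 67175 CPM in the 3, 60998 to 65397 in the 7 and 57093 to 67865 in controls, as the tissue label has it.

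Of 14377 genes with a mean of at least 1 CPM over all 20 libraries, 246 (1.71%) were higher in all 3 libraries than in all 7, and 1897 (13.2%) were lower in all 3 than in all 7. No test is attached to these counts, because a value measured in the same libraries chose the 3 and related genes follow it. The split depends on the scaling: with CPM scaled by trimmed mean of M-values (TMM) factors, which take less account of a few very abundant genes, 858 (5.97%) were higher and 531 (3.69%) lower. The share of higher among called genes was 11.5% by column totals and 61.8% by TMM. All 246 higher genes were among the 858, and all 531 lower genes by TMM were among the 1897. The median gene differed by -0.17 on the log2(CPM + 1) scale by column totals and by -0.03 by TMM, and every difference below is read against that shift. Counts of called genes in each list are read beside the shares above.

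Abundant lipogenic transcripts took a larger share of the 3 libraries. Genes of fatty acid synthesis, elongation and desaturation, Elovl6 included, held 12.9% of counts in Restricted 1, 11.1% in Restricted 10 and 9.17% in Restricted 5. The share was 5.13% to 7.58% in the other 7 and 4.65% to 6.15% in controls. TMM factors, which fall where abundant genes take more reads, were 0.874 to 0.927 in the 3, 0.978 to 1.03 in the 7 and 1.01 to 1.08 in controls. The part of lipogenic reads in these factors and in the shift of the median gene was not tested.

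Fatty acid synthesis was the list of metabolic genes with the largest median difference. Of 12 genes tested, 9 were higher in all 3 libraries by both scalings and 0 were lower, with a median difference of 1.15 by column totals, 1.31 by TMM and 0.90 without Restricted 1, against -0.17, -0.03 and -0.15 for all genes. Fasn (ENSMUSG00000025153.9, chromosome 11, 120805846 to 120824547, minus strand), which builds palmitate, was at 29641 CPM in Restricted 1, 19453 in Restricted 10 and 11320 in Restricted 5. It ranged from 3721 to 8638 in the other 7 (median 5589) and from 5408 to 10609 in controls (median 8576). The 3 lay above every other library of either diet, in the order of Elovl6, and the mean of 20138 ± 9180 (n = 3) was 3.09 times the 6519 ± 1973 of the 7, or 2.36 times without Restricted 1.

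Acaca, acetyl-CoA carboxylase 1, was at 2285, 1814 and 1197 CPM in Restricted 1, 10 and 5, against 475 to 892 in the 7 (median 753) and 497 to 976 in controls. Acss2, which makes acetyl-CoA from acetate, was at 1061, 583 and 345 CPM in the same order, against 123 to 272 in the 7 and 150 to 336 in controls. For both genes the 3 stood above all 17 other libraries. Acly, ATP citrate lyase, was at 3853 CPM in Restricted 1, 1682 in Restricted 10 and 819 in Restricted 5, against 351 to 777 in the 7. Controls ranged from 603 to 1461 CPM for Acly, so Restricted 5 lay within their range and Restricted 1 far above it. The Acly difference was 1.75 on the log2 scale and 1.18 without Restricted 1.

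The NADPH-making malic enzyme Me1 was at 1942, 877 and 635 CPM in Restricted 1, 10 and 5, against 304 to 498 in the 7 and 315 to 681 in controls. The citrate carrier Slc25a1 was at 1359, 1115 and 676 CPM, against 386 to 602 and 354 to 741. Thrsp, the Spot 14 protein of lipogenic tissues, was at 3146, 2195 and 1621 CPM, against 958 to 1365 and 823 to 1746. In each of these the order of Elovl6 held and Restricted 5 fell inside the control range.

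The order of Elovl6 was not that of every gene. Acacb, the acetyl-CoA carboxylase at the mitochondrion whose product restrains fatty acid oxidation, was highest in Restricted 10 at 1043 CPM, with 697 in Restricted 1 and 691 in Restricted 5. The 7 ranged from 267 to 531 and the controls from 236 to 572 CPM. Aacs, acetoacetyl-CoA synthetase, was likewise highest in Restricted 10 at 986 CPM, with 737 in Restricted 1 and 601 in Restricted 5, against 415 to 566 in the 7. The 3 listed genes whose values overlapped were Mid1ip1, a partner of Thrsp that promotes Acaca polymerisation (log2 difference -0.16), and the mitochondrial fatty acid synthesis genes Mcat and Oxsm.

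**Figure D1:**
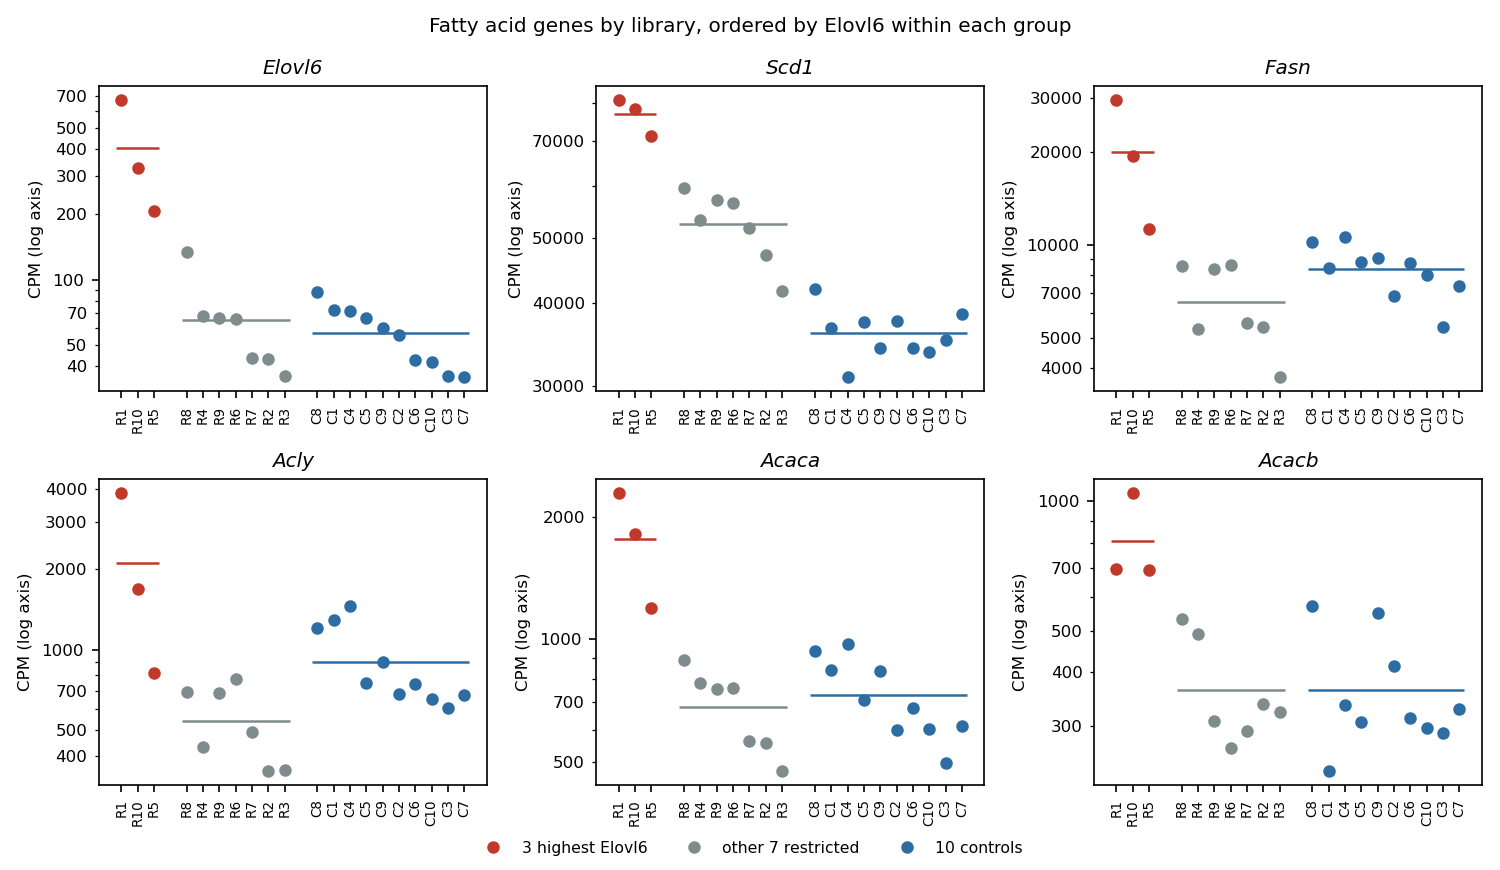
CPM on a log axis of 6 genes of fatty acid synthesis, elongation and desaturation in each of the 20 libraries, ordered by Elovl6 within the 3 chosen restricted libraries (red), the other 7 (grey) and the 10 controls (blue), with horizontal lines at group means. Fasn and Acaca in the 3 lie above all other libraries, Acly in Restricted 5 (819 CPM) lies within the control range, and Acacb is highest in Restricted 10 (1043 CPM).

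Scd1 (ENSMUSG00000037071.3, chromosome 19, 44394455 to 44407879, minus strand), stearoyl-CoA desaturase, was at 80746 CPM in Restricted 1, 78358 in Restricted 10 and 71227 in Restricted 5, which is 7.12% to 8.07% of all counts. The other 7 ranged from 41705 to 59600 (median 53316) and the controls from 30869 to 41982 (median 35892). The 3 differed from each other by less than for Elovl6 or Fasn, and their mean of 76777 ± 4953 (n = 3) was 1.46 times the 52444 ± 6250 of the 7. Of the 16 elongases and desaturases tested, Elovl6 left out, 4 were higher in the 3 (Scd1, Elovl5, Hsd17b12 and Tecr) and 0 lower by either scaling, with a list median of -0.01 (0.14 by TMM). Hsd17b12 and Tecr, the second and last enzymes of the elongation cycle that every elongase uses, were at 214 to 285 and 281 to 410 CPM in the 3 against 127 to 172 and 183 to 228 in the 7. Elovl5, which lengthens polyunsaturated fatty acids, was nearest to overlap, at 86.3 to 92.7 against 71.4 to 86.2 CPM.

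Both desaturases of polyunsaturated fatty acids overlapped between the groups. Fads1, the delta-5 desaturase, was at 113 to 145 CPM in the 3 and 118 to 151 in the 7, and Fads2, the delta-6 desaturase, was at 30.7 to 54.5 and 24.1 to 69.8 CPM. Scd2 was at 1082 CPM in Restricted 1, 519 in Restricted 10 and 313 in Restricted 5, and the 7 ranged from 228 to 536. Its log2 difference was 0.75 with Restricted 1 and 0.27 without it.

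The factors known to drive these genes differed far less than the genes. Of all genes tested, 1.71% were higher by column totals and 5.97% by TMM. Of 16 lipogenic transcription factors and regulators, 1 was higher (Insig1; 2 by TMM) and 0 lower, with a list median of -0.12 (0.04 by TMM). Insig1, itself a target of SREBP that holds SREBP in the endoplasmic reticulum, was at 480 CPM in Restricted 1, 261 in Restricted 10 and 226 in Restricted 5, against 111 to 204 in the 7 and 88.3 to 180 in controls. Srebf1, which encodes SREBP-1c, was at 902, 1017 and 744 CPM in Restricted 1, 10 and 5, and 522 to 814 in the 7, so the ranges overlapped. Mlxipl, which encodes ChREBP, was at 152 to 156 CPM in the 3, 148 to 165 in the 7 and 123 to 179 in controls. The counts do not resolve protein activity or the separate transcripts of either gene.

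Of 22 cholesterol synthesis genes, 8 were higher (Acat2, Cyp51, Ebp, Fdps, Lss, Nsdhl, Pmvk and Tm7sf2; 10 by TMM) and 0 lower. The share of higher genes among all tested was 1.71% by column totals and 5.97% by TMM. The list median was 0.39, and 0.17 without Restricted 1. Cyp51, lanosterol demethylase, was at 89.2, 66.2 and 59.2 CPM in Restricted 1, 10 and 5, above the 28.9 to 40.8 of the 7 and the 29.8 to 55.5 of controls. Not every gene of the pathway separated: the squalene epoxidase Sqle overlapped, at 14.03 to 26.5 CPM in the 3 against 11.7 to 17.96 in the 7.

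Of 30 genes for glucose uptake, glycolysis and the pentose phosphate pathway, 12 were higher and 1 lower (15 and 0 by TMM), with a median of 0.38, or 0.17 without Restricted 1. Among all genes tested, 1.71% were higher and 13.2% lower by column totals, and 5.97% and 3.69% by TMM. Tkt, transketolase of the pentose phosphate pathway, was at 3629 CPM in Restricted 1, 2590 in Restricted 10 and 1506 in Restricted 5, against 923 to 1149 in the 7 and 765 to 1386 in controls. Taldo1, transaldolase, was at 803, 666 and 604 CPM, against 417 to 469 in the 7. G6pdx and Pgd, the 2 enzymes of that pathway that make NADPH, were at 353 to 618 and 448 to 891 CPM in the 3 and at 257 to 344 and 317 to 438 in the 7, so all 4 genes separated. The glycolytic genes that did so were Gapdh, Ldha, Pfkl, Pfkm, Pgam1, Pgk1, Pkm and Tpi1.

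Gapdh, often used as a constant reference gene, was at 1216 CPM in Restricted 1, 752 in Restricted 10 and 675 in Restricted 5, against 370 to 488 in the 7 and 441 to 617 in controls. Processed pseudogenes of Gapdh and of several other glycolytic genes can share reads with them, so their levels are uncertain to that extent. The insulin-responsive transporter Slc2a4 overlapped at 251 to 359 CPM in the 3 and 235 to 269 in the 7, as did hexokinase Hk2 at 235 to 245 and 225 to 275. Hk1 was the 1 lower gene, at 23.9 to 28.7 against 30.3 to 52.0 CPM, and overlapped by TMM. Muscle genes of the pathway rested on Restricted 1 alone: the muscle enolase Eno3 was at 72.4 CPM there, 14.6 in both other libraries of the 3, and 12.7 to 19.5 in the 7.

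Of 31 genes for pyruvate entry and the citric acid cycle, 10 were higher (Aco1, Cs, Dlat, Mdh1, Mpc1, Pcx, Pdha1, Pdk1, Sdha and Sdhc) and 1 lower (Pdk3), and by TMM 24 were higher and 0 lower. All genes tested had 1.71% higher and 13.2% lower by column totals, and 5.97% and 3.69% by TMM. The list median was 0.23 (0.40 by TMM, 0.17 without Restricted 1). Pcx, pyruvate carboxylase, which refills oxaloacetate as citrate leaves for lipogenesis, was at 4427, 4181 and 2964 CPM in Restricted 1, 10 and 5, against 1695 to 2548 in the 7 and 2000 to 2911 in controls. Mpc1, a subunit of the mitochondrial pyruvate carrier, was at 247, 176 and 130 CPM against 83.5 to 115, and Pdha1, the catalytic subunit of pyruvate dehydrogenase, at 679, 576 and 494 against 333 to 391. Pdk1, a kinase that turns pyruvate dehydrogenase off, was higher in the same libraries at 112, 119 and 93.97 CPM, against 55.9 to 71.4 in the 7 and 42.0 to 64.7 in controls. Pcx, Mpc1, Pdha1 and Pdk1 in the 3 lay above all 10 controls.

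Of 15 glycogen genes, 3 were higher (Gbe1, Gys2 and Pygl) and 1 lower (Pygb), with a list median of 0.17. By TMM 5 were higher and 0 lower. Among all genes tested, 1.71% were higher and 13.2% lower by column totals, and 5.97% and 3.69% by TMM. Gys2, the glycogen synthase known from liver, was at 45.5 CPM in Restricted 1, 17.9 in Restricted 10 and 14.9 in Restricted 5, against 6.45 to 11.6 in the 7 and 3.49 to 10.96 in controls. The muscle phosphorylase Pygm was at 42.1 CPM in Restricted 1 and at 4.90 and 4.84 in Restricted 10 and 5, within the 4.25 to 6.99 of the 7.

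Triglyceride assembly differed less than synthesis of its fatty acids. All genes tested had 1.71% higher and 13.2% lower by column totals, and 5.97% and 3.69% by TMM. Of 20 genes, 3 were higher (Acsl1, Gpd1 and Lpin1; 5 by TMM) and 1 lower (Acsl5; 0 by TMM), with a median of 0.16. Gpd1, which makes glycerol-3-phosphate from a glycolytic intermediate, was at 2365, 1325 and 1102 CPM in Restricted 1, 10 and 5, against 847 to 1088 in the 7, so Restricted 5 lay close to the 7. Dgat2, which adds the last acyl chain, overlapped at 3070 to 4212 against 2461 to 3342 CPM. Of 17 genes for fatty acid uptake and lipid droplets, 4 were higher (Bscl2, Cidea, Fabp5 and Slc27a1; 9 by TMM) and 0 lower.

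Cidea, a lipid droplet protein best known from brown fat, had the widest gap of all the higher genes that the naming rule ranked. It was at 15.5 CPM in Restricted 1, 25.7 in Restricted 10 and 14.4 in Restricted 5, against 4.76 to 8.001 in the 7 and 1.83 to 5.33 in controls. Cox8b, the cytochrome oxidase subunit of brown fat and muscle, was at 32.2, 32.3 and 24.5 CPM against 8.91 to 18.5 in the 7 and 7.60 to 13.8 in controls. Skeletal muscle genes summed to 4164 CPM in Restricted 1, 175 in Restricted 10 and 112 in Restricted 5, and their part in the Cox8b level was not tested. Of 11 thermogenic genes tested, these 2 were higher, 1 was lower (Adrb3, which overlapped by TMM), and Ucp1, which defines brown adipocytes, did not reach the mean of 1 CPM.

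The 12 higher genes with the widest gap also held Cyp51, Gapdh, Acaca, Pdk1, Tkt, Fasn, Acacb and Taldo1, described above, and genes outside these pathways. Ntsr2, a neurotensin receptor, was at 34.3 CPM in Restricted 1, 24.5 in Restricted 10 and 19.0 in Restricted 5, against 8.98 to 14.1 in the 7 and 3.08 to 11.3 in controls. All 12 were higher by TMM as well, and in all 12 the 3 lay above every control.

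**Figure D2:**
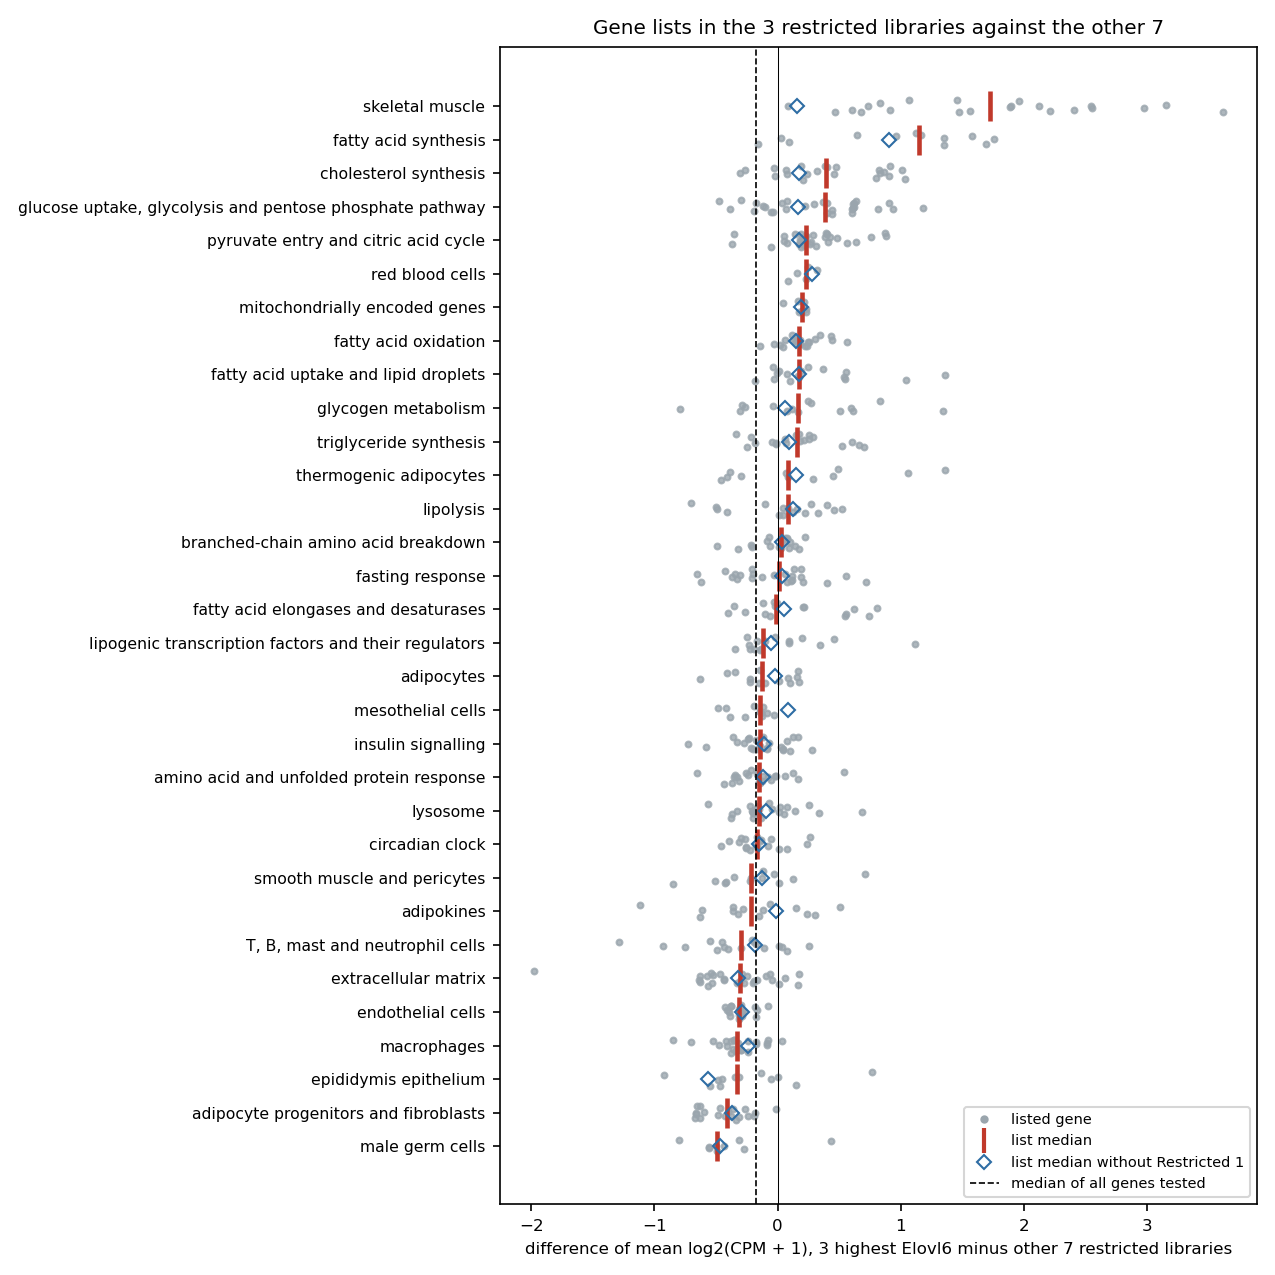
Difference of mean log2(CPM + 1), the 3 restricted libraries with the highest Elovl6 minus the other 7, for each tested gene (dots) of 32 lists, with list medians for all 3 (red bars) and without Restricted 1 (open diamonds), beside the median of all genes tested (dashed, -0.17). Fatty acid synthesis has medians of 1.15 and 0.90, and skeletal muscle falls from 1.73 to 0.16 when Restricted 1 is left out.

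Restricted 1 was the highest of the 3 for 168 of the 246 higher genes, Restricted 10 for 57 and Restricted 5 for 21. The skeletal muscle list had a median difference of 4.54 in Restricted 1 and 0.16 in Restricted 10 and 5 together, and all 22 of its genes lay further out in Restricted 1. Fatty acid synthesis had medians of 1.51 and 0.90, cholesterol synthesis 0.84 and 0.17, and glucose uptake, glycolysis and the pentose phosphate pathway 0.64 and 0.17. The part of muscle RNA in the last 2 lists was not tested. The 1 muscle gene counted as higher, Xirp2, was at 63.7 CPM in Restricted 1 and at 0.28 and 0.076 in Restricted 10 and 5, against at most 0.055 in the 7.

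With Restricted 1 left out, the next library by Elovl6 was Restricted 8. Restricted 10, 5 and 8 were all higher than the remaining 6 in 150 genes (1.04%) and all lower in 704 (4.9%). Of the 12 fatty acid synthesis genes, 6 were among the 150 (Acaca, Acacb, Acss2, Me1, Slc25a1 and Aacs). Fasn, Acly and Thrsp were not, with Fasn at 8574 CPM in Restricted 8 and 8638 in Restricted 6. The 150 also held 6 of the 30 genes in glucose uptake, glycolysis and the pentose phosphate pathway. They held 5 of 31 in pyruvate entry and the citric acid cycle and 3 of 22 in cholesterol synthesis. The fasting response had 4 of 24 and skeletal muscle 0 of 22. With Restricted 1 left out of the 3, the median difference moved from 0.38 to 0.33 for the 246 higher genes. For the 1897 lower genes it moved from -0.38 to -0.35. The choice of genes fixes the sign of each difference, so nothing is read from the signs.

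**Figure D3:**
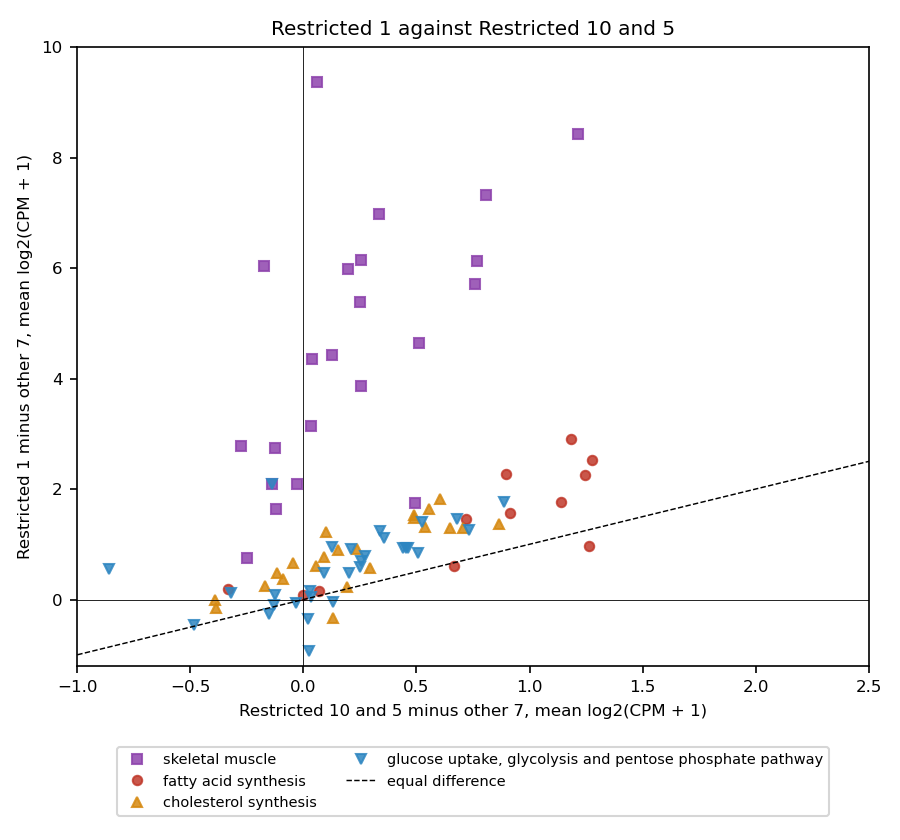
For each tested gene of 4 lists, the difference from the other 7 restricted libraries in mean log2(CPM + 1) of Restricted 1 (vertical axis) and of Restricted 10 and 5 together (horizontal axis); the dashed line marks equal differences. Skeletal muscle genes (median 4.54 against 0.16) lie far above the line, and fatty acid synthesis genes lie out on both axes (1.51 and 0.90).

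Genes lower in the 3 libraries included matrix, cytoskeletal and signalling genes. Thbs1 (ENSMUSG00000040152.8, chromosome 2, 118111876 to 118127133, plus strand), thrombospondin 1, a matrix protein that activates latent TGF-beta, had the widest gap of the lower genes that the naming rule ranked. It was at 24.9 CPM in Restricted 1, 33.8 in Restricted 10 and 36.1 in Restricted 5, against 89.8 to 168 in the 7 (median 142) and 38.4 to 244 in controls (median 52.9). The 3 lay below every other library, and the mean of 31.6 ± 5.89 (n = 3) stood against 129 ± 30.0 in the 7, a 4.08-fold difference. Thbs2 was at 14.2, 20.99 and 22.1 CPM against 35.5 to 82.8 in the 7, but the controls ranged from 13.7 to 65.3 with a median of 23.9. For both genes it is thus the 7, more than the 3, that lie away from the middle of the controls. For Thbs1 the 3 also lay below every control, and for Thbs2 they did not.

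The other lower genes with the widest gaps were Pamr1, Hmcn2, Apba1, Wsb1, Rapgef3, Cbx2, Vgll3, Cacna1e, Flna and Prr33, and all 12 were lower by TMM too. Flna, the actin cross-linker filamin A, was at 419, 401 and 418 CPM in Restricted 1, 10 and 5, against 570 to 732 in the 7 and 542 to 797 in controls. Vgll3, a cofactor of TEAD transcription factors, was at 9.88, 12.9 and 17.7 CPM against 24.2 to 41.2 and 11.96 to 28.7. Rapgef3, the cAMP-activated exchange factor Epac1, was at 38.2, 44.1 and 48.5 CPM against 67.2 to 93.0 and 65.7 to 96.5. Wsb1, of an E3 ubiquitin ligase complex, was at 19.997, 17.9 and 21.8 CPM against 30.5 to 40.0 and 29.6 to 34.8. For Flna, Rapgef3 and Wsb1 the 7 sat within or near the control range and the 3 below it, whereas for Vgll3 the 3 and the controls overlapped.

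**Figure D4:**
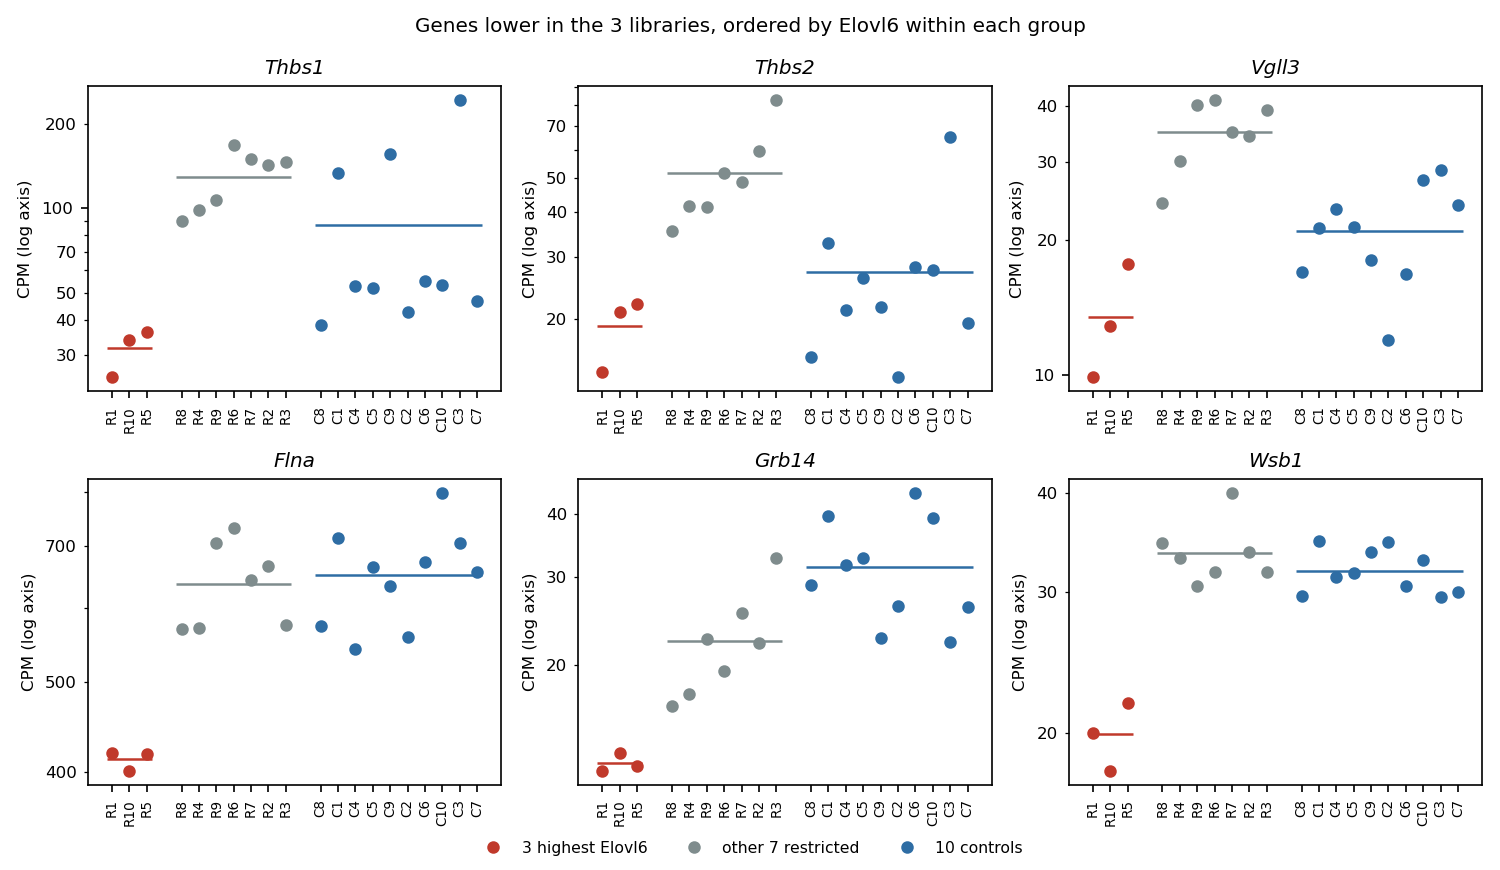
CPM on a log axis of 6 genes that were lower in the 3 chosen restricted libraries (red) than in the other 7 (grey), with the 10 controls (blue), ordered by Elovl6 within each group; horizontal lines are group means. Flna, Wsb1 and Grb14 in the 3 lie below all controls, while Thbs2 and Vgll3 in the 3 overlap with the controls.

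Counts of insulin signalling and lipolysis genes are read beside the shares of all genes tested. Those were 1.71% higher and 13.2% lower by column totals, and 5.97% and 3.69% by TMM. By column totals, the lower counts of both lists were not far from that share. Of 25 insulin signalling genes, 1 was higher (4 by TMM) and 3 lower (Cblb, Grb14 and Tsc1; 1 by TMM), with a median of -0.14. Grb14, an adaptor that inhibits the insulin receptor, was at 12.3, 13.4 and 12.6 CPM in Restricted 1, 10 and 5, against 16.6 to 32.7 in the 7 and 22.2 to 43.97 in controls. The receptor itself, Insr, overlapped at 161 to 191 against 171 to 215 CPM, as did Irs2, at 85.4 to 103 against 87.1 to 133.

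Of 17 lipolysis genes, 2 were higher (Adora1 and Prkaca) and 3 lower (Adrb3, Npr1 and Npr3), and by TMM 6 were higher and 1 lower. Adrb3, the adrenergic receptor through which noradrenaline drives lipolysis in adipocytes, was at 708, 816 and 695 CPM against 847 to 1055 in the 7 and 884 to 1366 in controls. It overlapped by TMM. Npr3, the natriuretic peptide clearance receptor, was at 864, 795 and 924 CPM against 1025 to 1436, and was lower by TMM as well. The lipases Pnpla2 and Lipe overlapped by column totals, at 2761 to 3556 against 2458 to 2978 and 2653 to 3106 against 2602 to 2877 CPM, and counted as higher by TMM.

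Of 24 fasting response genes, 0 were higher and 2 lower (Sesn1 and Sesn3) by column totals, and 1 higher and 0 lower by TMM, with a median of 0.01. With Restricted 1 left out, 4 of the 24 were higher in Restricted 10, 5 and 8 than in the remaining 6, where 1.04% of all genes tested were: Fkbp5, Per1, Sgk1 and Zbtb16. Fkbp5, a glucocorticoid target, was at 224 CPM in Restricted 10, 235 in Restricted 5 and 145 in Restricted 8, against 60.7 to 130 in the remaining 6, and at 104 in Restricted 1. Restricted 1 lay within the range of the remaining 6 in all 4 genes. Txnip, which rises with glucose in many cells, overlapped at 698 to 853 CPM in the 3 and 821 to 1230 in the 7. Of 14 adipokines, 1 was higher (Retn, resistin, 1817 to 2061 against 1465 to 1690 CPM). By column totals 2 were lower (Fstl1 and Sfrp5), and by TMM 1 was. Among all genes tested, 1.71% were higher and 13.2% lower by column totals, and 5.97% and 3.69% by TMM. By column totals, the lower adipokine count was near that share. Lep, leptin, was at 964 CPM in Restricted 1, 927 in Restricted 10 and 1254 in Restricted 5, against 1204 to 1960 in the 7 and 879 to 1598 in controls, so Restricted 5 overlapped with the 7. Adipoq, adiponectin, was at 2991, 4689 and 4383 CPM against 4143 to 4990.

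Lower counts for markers of cells other than adipocytes are read beside the shares of all genes tested. Those were 13.2% lower by column totals and 3.69% by TMM. The lists of endothelial, mesothelial, and T, B, mast and neutrophil cell genes did not exceed either share. In bulk tissue, fewer cells of a type and less RNA per cell cannot be told apart. A larger share of reads in some genes lowers the CPM of all others, so both scalings are given. The part of lipogenic reads in these differences was not tested. Of 20 genes of adipocyte progenitors and fibroblasts, 0 were higher and 12 lower by column totals (Cd34, Cd55, Col14a1, Dcn, Dpp4, Gsn, Icam1, Lum, Mfap5, Pdgfra, Pdgfrb and Thy1), and 5 lower by TMM (Cd55, Col14a1, Dcn, Mfap5 and Thy1). The list median was -0.41 by column totals and -0.29 by TMM. Dcn, the matrix proteoglycan decorin, was at 605, 732 and 765 CPM in Restricted 1, 10 and 5, against 833 to 1031 in the 7 and 1161 to 1541 in controls.

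Of 27 extracellular matrix genes, 0 were higher and 6 lower (Col1a1, Mmp14, Mmp2, Thbs1, Timp1 and Timp2; 3 by TMM), with a median of -0.30, or -0.14 by TMM. Of all genes tested, 13.2% were lower by column totals and 3.69% by TMM. Of 24 macrophage genes, 0 were higher and 5 lower (Cd68, Cd9, Csf1r, Itgam and Lyz2; 1 by TMM), with a median of -0.33, or -0.20 by TMM. Macrophage genes summed to 1114 to 1340 CPM in the 3, 1434 to 1968 in the 7 and 1831 to 2576 in controls, so the 3 and the 7 did not overlap by column totals. By TMM the sums were 1275 to 1515 CPM in the 3 and 1406 to 1999 in the 7, which overlapped. Csf1r, the receptor macrophages need to survive, was at 126 to 131 CPM in the 3, 146 to 208 in the 7 and 207 to 294 in controls. Of 17 endothelial genes, 2 were lower (Egfl7 and Eng; 0 by TMM), and of 13 smooth muscle and pericyte genes, 3 were lower (Acta2, Kcnj8 and Notch3; 1 by TMM), with 0 higher in either list.

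Of 22 fatty acid oxidation genes, 5 were higher (Acaa2, Acadm, Cpt2, Hadha and Slc25a20; 14 by TMM) and 0 lower, where 1.71% of all genes tested were higher by column totals and 5.97% by TMM. Slc25a20, the carnitine carrier of that pathway, was at 97.9, 104 and 93.0 CPM against 69.5 to 76.3. Lower genes made up 13.2% of all genes tested by column totals and 3.69% by TMM. By column totals, no list in this paragraph exceeded that lower share. Of 25 lysosome genes, 1 was higher (Ctsd, 1769 to 2256 against 1000 to 1637 CPM) and 3 lower (Ctsa, Ctsh and Ctss; 0 by TMM). Of 19 circadian clock genes, 0 were higher and 1 lower (Bhlhe41), and of 23 genes of the amino acid and unfolded protein responses, 0 were higher and 2 lower (Atf5 and Manf); by TMM these 3 overlapped. Of 14 adipocyte genes, 0 were higher and 1 lower (Adrb3) by column totals and 4 higher and 0 lower by TMM. Of 9 male germ cell genes, 0 were higher and 1 lower (Odf2). The lists of 19 branched-chain amino acid breakdown genes, 8 mitochondrially encoded genes, 17 genes of T, B, mast and neutrophil cells, 12 of epididymis epithelium, 12 of mesothelial cells and 5 of red blood cells held 0 higher and 0 lower by column totals, and by TMM 6 branched-chain genes were higher.

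Set against the control diet, 113 of the 246 higher genes (45.9%) had the 3 libraries above all 10 controls, which was so for 286 (1.99%) of all genes tested. Of the 1897 lower genes, 1189 (62.7%) had the 3 below all 10 controls, against 3050 (21.2%) of all genes. By TMM the shares were 21.6% of 858 higher genes and 70.6% of 531 lower genes. These genes were picked because the 3 libraries were extreme in them, so shares above those of all genes are built in and nothing is read from them.

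Whether other genes follow Elovl6 in libraries that did not choose the 3 was tested across the 10 controls, by the slope of each gene on log2 Elovl6 by edgeR (quasi-likelihood F test), contamination label included as a term. The labels do not tie libraries to animals, and p-values here reflect library-to-library spread, which may be technical. With Benjamini-Hochberg adjustment over 14377 genes, 0 rose and 0 fell at an adjusted p of 0.05 (0% in both directions), and the smallest unadjusted p among rising genes was 0.000645, for Iglc2, an immunoglobulin light chain gene. DESeq2 called 1 gene rising (Iglc2) and 3 falling (Gh, Idi2 and 4833423E24Rik, named after their values were seen). The falling slopes were -20.7, -30 and -24.6 in that order, on the log2 scale per doubling of Elovl6. Elovl6 spanned only 2.47-fold in controls, so these slopes are not read as sizes of change. At an unadjusted p under 0.05, edgeR had 183 genes rising (1.27%) and 254 falling (1.77%).

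Some fatty acid synthesis genes were near the top of that ranking without passing it. By unadjusted edgeR p, Acss2, Acly, Me1 and Acaca ranked 6, 7, 15 and 16 of 14377, while Fasn ranked 506. Of the 12 listed, 9 had a positive slope and 4 an unadjusted edgeR p under 0.05, against 48.8% and 1.27% of all genes. Other lists also held many positive slopes, with 22 of 22 in skeletal muscle and 29 of 31 in pyruvate entry and the citric acid cycle. Of 20 progenitor and fibroblast genes, 4 had a positive slope. The median slope was 2.29 in skeletal muscle, with 0 genes at an unadjusted edgeR p under 0.05, and 0.42 in fatty acid synthesis. Summed muscle genes parted Control 1 to 5 (1237 to 2590 CPM) from Control 6 to 10 (99.4 to 125 CPM). The muscle slopes cannot be read apart from that split. With a muscle index as a term, 0 genes passed adjustment. With replicates 1 to 5 against 6 to 10 as a term, 0 passed as well. A doubling of Elovl6 among controls went with a change of 1.10 ± 0.28 (SE) on the log2 scale for Acly (unadjusted p = 0.00245), 1.02 ± 0.26 for Acss2 (0.00228), 0.80 ± 0.22 for Me1 (0.00404) and 0.73 ± 0.20 for Acaca (0.00412), each with an edgeR adjusted p that rounds to 1. The slope was 0.51 ± 0.24 for Fasn (unadjusted edgeR p = 0.0559) and 0.18 for Scd1 (0.299). Mid1ip1, Aacs and Mcat had slopes below 0.

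Of the 246 genes higher in the 3 restricted libraries, 207 (84.1%) had a positive slope across controls and 24 (9.76%) had one at an unadjusted edgeR p under 0.05. Of the 1897 lower genes, 1196 (63.0%) had a negative slope and 45 (2.37%) one at an unadjusted p under 0.05. By TMM the shares were 71.8% of 858 higher and 68.7% of 531 lower genes, beside 48.8% positive and 51.2% negative among all genes. Restricted and control libraries share no sample here, but genes are not independent of each other, so these shares are a description.

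**Figure D5:**
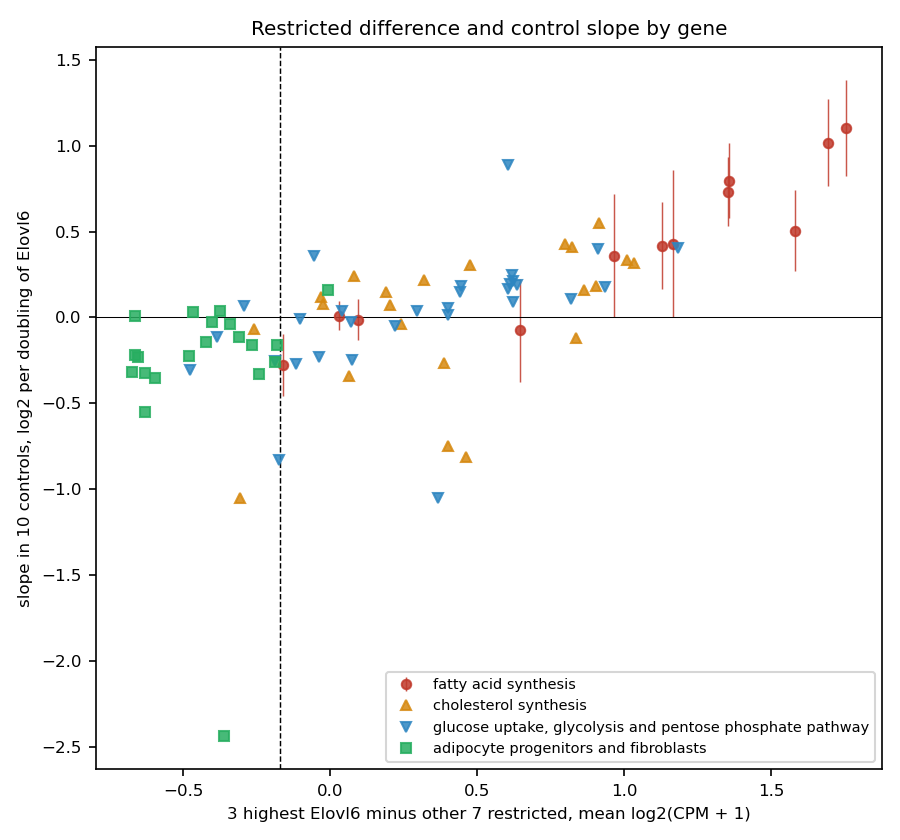
For each tested gene of 4 lists, the slope across the 10 control libraries (log2 change per doubling of Elovl6, vertical axis) against the difference between the 3 restricted libraries and the other 7 (mean log2(CPM + 1), horizontal axis), with standard errors for fatty acid synthesis genes and the median of all genes dashed. Acly, Acss2, Me1 and Acaca lie highest among fatty acid synthesis genes (slopes 0.73 to 1.10), and none passes the adjusted threshold.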

How the data were processed

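The authors deposited 1 table of raw gene counts for 20 eWAT libraries, with GRCm38 identifiers of 55401 genes; bcl2fastq 4.0.3, STAR and Salmon are listed, with no roles, in the submitters' processing notes, and reads were 52-base pairs per the labels' protocols, which name another tissue (QUAD) as the RNA source. Counts were divided by column totals to give CPM. Genes with a mean of at least 1 CPM over 20 libraries were kept (14377, holding at least 99.6% of counts), Elovl6 left out. A gene counted as higher or lower when the 3 and the 7 did not overlap; sizes are differences of mean log2(CPM + 1), with folds taken on mean CPM. Control slopes were fitted with edgeR 4.0.16 (TMM, R 4.3.3) and, as an alternative, DESeq2 1.42.0; the edgeR step was tested on simulated data. Alternatives covered scaling, level filter, pseudocount, number of high libraries, labels and leaving out libraries. No 2 restricted libraries agreed within sampling noise (lowest chi-square per gene 10.3 over 45 pairs).

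The 3 libraries and the 32 gene lists were chosen with earlier results of these data known. Genes were named by rule: Elovl6, Scd1 and Fasn; the 12 widest gaps in each direction among genes of at least 5 CPM; up to 4 largest differences per list; and the 6 smallest control p-values in each direction. Other list members named were chosen after their values were seen. Some items are not reported here.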

Additional observations from a re-analysis of the deposited data

Results flagged for a closer look

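Single libraries far from the rest of their group were sought in 71 groups of values, by the gap to the nearest library as a share of the group's range; chance marks about 1 group in 20. Among the 10 restricted libraries, Restricted 1 stood apart in Elovl6 (674 CPM), Acly (3853 CPM), Acss2 (1061 CPM), Me1 (1942 CPM), Insig1 (480 CPM), Gapdh (1216 CPM), Gys2 (45.5 CPM), Gpd1 (2365 CPM) and the muscle gene Ckm (187 CPM). Restricted 10 stood apart in Cidea (25.7 CPM). Among the 7 restricted libraries outside the chosen 3, Restricted 8 stood apart in Elovl6 (134 CPM). The 7 were set by a cut on Elovl6 itself, and several other genes were named for their differences between the 3 and the 7. The rate of 1 in 20 therefore does not hold for these groups. Among the 10 controls, Control 3 stood apart in Thbs2 (65.3 CPM) and in the integrin gene Itgam (23.6 CPM).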

How the results depend on the processing

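The counts of 246 higher and 1897 lower genes became 858 and 531 by TMM, 483 and 2990 for the 2 highest libraries, 110 and 557 for the 4 highest, 150 and 704 for the 3 highest without Restricted 1, 597 and 3015 in libraries marked No, and 1130 and 856 by TMM without Restricted 1 (chosen after seeing the data). Taking libraries out while the rest keep their side cannot lower the number of genes without overlap, as in libraries marked No. The settings with the 2 highest, the 4 highest, and the 3 highest without Restricted 1 change the sides, so this does not hold for them. Leaving out 1 restricted library gave 264 to 558 higher and 1988 to 3884 lower genes; the count moved over 1.5 times without Restricted 5 (558 and 3884) and, for higher genes, without Restricted 10 (386). Across controls, calls stayed at 0 rising and 0 falling in edgeR under the other normalizations, filters and terms. DESeq2 gave 1 and 3, and leaving out 1 control gave 0 rising and 0 to 1 falling (Idi2, without Control 10). That Idi2 slope of -64.6 and the falling DESeq2 slopes are too steep to be read as sizes of change. The causes were not tested. Elovl6 spanned 2.47-fold in controls, which limits the slopes. Of the recomputed differences of named genes, 557 moved by less than 1 SD and 43 by more. The sign changed for 2 genes that overlapped, Pygm (0.83 to -0.13 without Restricted 1) and Ap2s1 (-0.05 to 0.11 by TMM). It changed for 0 genes that separated, which the choice of those genes fixes except under TMM. No paired analysis was possible because each replicate number occurs once within the restricted group and once within the controls.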
